A study of Mus musculus with 8 samples.

Results

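LPS sensing in the lung was examined through 10 genes, namely Tlr4, Ly96, Cd14, Lbp, Tlr2, Myd88, Tirap, Ticam1, Irak3 and Irak2. The genes were chosen by name as the LPS receptor complex with its adaptors and IRAK regulators, with earlier results of these data known. All 10 were found among the 24584 genes of the tables. RNA-seq was performed on 4 lung samples of the LPS group and 4 of the LPS + Tan group. The animals were male ICR mice of 6 to 8 weeks, an outbred stock (genotype given as "widetype"), and both groups received LPS from Escherichia coli at 5 mg/kg intraperitoneally. The LPS + Tan group also received tangeretin, a polymethoxylated flavonoid of citrus fruits, at 50 mg/kg intraperitoneally 30 min before LPS, and lungs were taken 12 h after LPS. Neither untreated lung nor lung given tangeretin alone was analysed here, so all levels below are those of LPS-treated lung. Nothing in the labels or methods says that each sample is a separate animal, so p-values measure the spread between these samples, which may in part be technical.

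LPS of the bacterial outer membrane is extracted by the serum protein LBP, passed to CD14 and loaded onto MD-2, the product of Ly96, which sits on the ectodomain of TLR4. TLR4 then signals through TIRAP and MyD88 at the plasma membrane, where IRAK kinases assemble and NF-κB is activated, and through TRAM and TRIF in endosomes, where IRF3 is activated. In lung, alveolar macrophages, recruited monocytes and neutrophils as well as endothelial and epithelial cells can carry these proteins. IRAK3, also called IRAK-M, restrains the pathway, and its expression is associated with endotoxin tolerance.

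The gene counts of a sample summed to between 38895654 and 39931970. CPM below are counts scaled to library size after TMM normalization, a correction for differences in library composition. FPKM are the deposited values, divided by gene length as well. Tests are edgeR's quasi-likelihood test over 15706 genes, and a positive log2 fold change means a higher level in LPS + Tan. Lung markers were present in every sample, with a mean FPKM of 5816 for Sftpc of alveolar type 2 cells, 450 for Ager of alveolar type 1 cells, 31365 for Scgb1a1 of airway secretory cells and 415 for Cldn5 of endothelial cells. The summed CPM of 12 neutrophil markers, led by S100a9, ranged from 4711 to 6518 in the LPS group and from 4491 to 6268 in the LPS + Tan group. That of 10 markers of monocytes and interstitial macrophages, led by Ly6c2, ranged from 337 to 531 and from 406 to 606, and that of 8 markers of alveolar macrophages, led by Chil3, from 1116 to 2131 and from 1096 to 2266. None of these markers was at 0 in all samples, and the groups overlapped for each list. At an unadjusted edgeR p below 0.05, 1 of the 10 monocyte and macrophage markers and 2 of 8 endothelial markers were higher in LPS + Tan. In whole tissue, fewer cells of a type and less RNA per cell cannot be told apart.

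None of the 10 genes differed between the groups by the test. At an unadjusted p below 0.05, edgeR called 0 of 10, where it called 5.12% of all tested genes, 804 genes in all. At the thresholds of the study for a differentially expressed gene, an unadjusted p below 0.05 with an absolute log2 fold change above 1, it called 0 of 10, against 0.649% of all tested genes. After Benjamini-Hochberg adjustment over all tested genes, edgeR called 0 of 10 and 0 genes in total, and the adjusted p of the 10 genes lay between 0.924 and 0.998. DESeq2, edgeR's likelihood ratio test and limma-voom also called 0 of the 10 after adjustment, where they called 35, 23 and 0 of all genes. The CPM of the groups overlapped for all 10, where non-overlapping groups were found for 2.73% of all genes tested. The log2 fold changes ran from -0.17 for Irak3 to 0.30 for Ly96, with a median of -0.068 against 0.0070 over all tested genes. All 10 of the 95% intervals held 0 and stayed within 1 on the log2 scale on either side, and 6 of them stayed within 0.4, so that a change of the size asked of a differentially expressed gene lay outside the interval of every one.

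**Figure D1:**
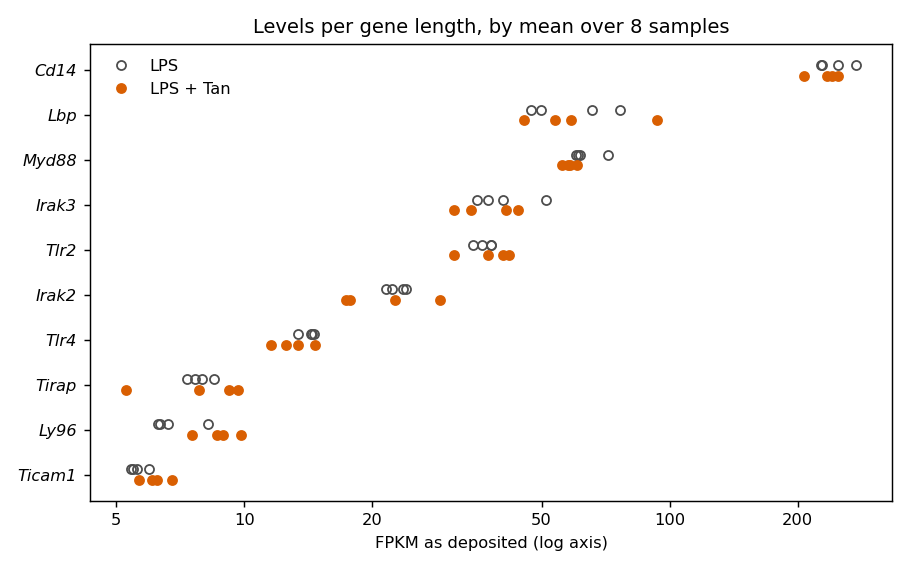
FPKM as deposited (log axis) of the 10 genes in 4 LPS samples (open circles) and 4 LPS + Tan samples (filled circles), ordered by the mean over the 8 samples. Cd14 stands highest, at 207 to 274, Ticam1 has the lowest mean, at 5.41 to 6.75, Tirap in LPS + Tan replicate 4 the lowest single value, 5.28, and the groups overlap in every row.

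The genes spanned a wide range of levels per gene length. Cd14 had the highest FPKM, 239 ± 19.9 (SD over the 8 samples), above all other members in every sample. Lbp at 61.3 ± 16.6 (SD, n = 8) and Myd88 at 60.9 ± 4.72 (SD, n = 8) came next and were not ordered, since Lbp was above Myd88 in 4 of the 8 samples. Irak3 at 39.4 ± 6.36 and Tlr2 at 37.3 ± 3.44 FPKM (SD, n = 8) were likewise not ordered, with Irak3 higher in 5 of the 8 samples. Irak2 at 22.2 ± 3.63 and Tlr4 at 13.6 ± 1.11 FPKM (SD, n = 8) followed, without overlap between Irak2 and Tlr4 over the samples. Tirap at 7.93 ± 1.33 and Ly96 at 7.79 ± 1.32 FPKM (SD, n = 8) could not be ordered, Tirap being higher in 5 of the 8 samples. Ticam1 had the lowest mean, 5.90 ± 0.452 FPKM (SD, n = 8), and was below Ly96 in 8 of the 8 samples, whereas Tirap was below it in LPS + Tan replicate 4, at 5.28 against 5.67 FPKM. These levels depend on the gene lengths behind the FPKM. The counts and FPKM together give a length of 8411 bases for Tlr4 and 603 for Ly96, whereas the merged exons of GENCODE M21 on GRCm38 measure 5556 and 1021 bases. The lengths were the same in every sample, so comparisons between the groups do not depend on them.

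The receptor itself was the first gene of interest. Tlr4 (chr4:66827584-66930284, plus strand, GRCm38), the signalling receptor for LPS, had CPM of 114, 120, 126 and 124 in LPS replicates 1 to 4 and of 94.4, 123, 99.96 and 116 in LPS + Tan replicates 1 to 4. LPS + Tan replicates 1 and 3 were below every LPS sample, and the other 2 lay among them. Means were 121 ± 5.20 under LPS and 108 ± 13.3 under LPS + Tan (SD, n = 4 each), a log2 fold change of -0.16 (SE 0.097, 95% interval -0.38 to 0.055, edgeR adjusted p = 0.928). LPS + Tan replicate 2 held the highest Tlr4 of its group, and without it the log2 fold change was -0.23, for which edgeR fitted to the other 7 samples gave an unadjusted p of 0.0384 and called 10.2% of all genes, where the fit to 8 samples called 5.12%. Without LPS + Tan replicate 1, which held the lowest Tlr4, it was -0.10.

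Ly96 (chr1:16688051-16709611, plus strand), which encodes the LPS-binding subunit MD-2, had the largest difference of the 10. Its CPM was 3.84, 3.80, 5.17 and 4.02 in LPS replicates 1 to 4 and 5.76, 4.53, 4.93 and 5.54 in LPS + Tan replicates 1 to 4. LPS replicates 1, 2 and 4 were below every LPS + Tan sample, whereas LPS replicate 3 was above 2 of them. On the log2 scale Ly96 differed by 0.30 (SE 0.16, 95% interval -0.049 to 0.65, edgeR adjusted p = 0.924). It had the fewest counts of the 10 genes, 185 per sample on average, for which counting error alone gives a coefficient of variation of 7.35%, against 15.5% observed in the LPS group and 10.8% in the LPS + Tan group. The unadjusted edgeR p of Ly96 was 0.0839, and other settings gave values from 0.0156 to 0.193. It was 0.0486 on total counts without TMM factors and 0.0252, with a log2 fold change of 0.42, without LPS replicate 3. The adjusted p was 0.507 or higher under all alternatives.

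Cd14 and Lbp encode the proteins that hand LPS to the receptor. Cd14 (chr18:36725067-36726798, minus strand), the co-receptor, had CPM of 420, 377, 476 and 380 in LPS replicates 1 to 4 and of 389, 411, 326 and 402 in LPS + Tan replicates 1 to 4. LPS replicate 3 was the highest and LPS + Tan replicate 3 the lowest, and the other 6 samples lay from 377 to 420. Cd14 had a log2 fold change of -0.11 (95% interval -0.36 to 0.13), and of -0.039 without LPS replicate 3 or -0.047 without LPS + Tan replicate 3. Lbp (chr2:158306493-158332852, plus strand), the serum carrier of LPS, varied most between samples, with CPM of 196, 118, 131 and 168 in LPS replicates 1 to 4 and of 111, 235, 129 and 153 in LPS + Tan replicates 1 to 4. The highest value was 2.11 times the lowest, and LPS + Tan replicates 1 and 2 were the extremes. Its log2 fold change was 0.034 with a 95% interval of -0.49 to 0.56. It was -0.23 without LPS + Tan replicate 2 and 0.17 without LPS replicate 1. The summed CPM of 5 hepatocyte markers, of which 2 passed the filter on low counts, was 4.94 to 9.34 in the LPS group and 5.04 to 9.80 in the LPS + Tan group. Of the 2 tested markers, 1 was called lower in LPS + Tan at an unadjusted edgeR p below 0.05. Which cells the Lbp RNA came from was not tested.

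Tlr2 (chr3:83836272-83841767, minus strand), the receptor for bacterial lipoproteins, had CPM of 128, 119, 118 and 127 in LPS replicates 1 to 4 and of 120, 134, 97.4 and 143 in LPS + Tan replicates 1 to 4. The LPS + Tan samples lay on both sides of the LPS samples. Both groups averaged 123, with SDs of 5.10 for LPS and 19.7 for LPS + Tan (n = 4 each), and the log2 fold change was 0.0064 (95% interval -0.25 to 0.26).

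**Figure D2:**
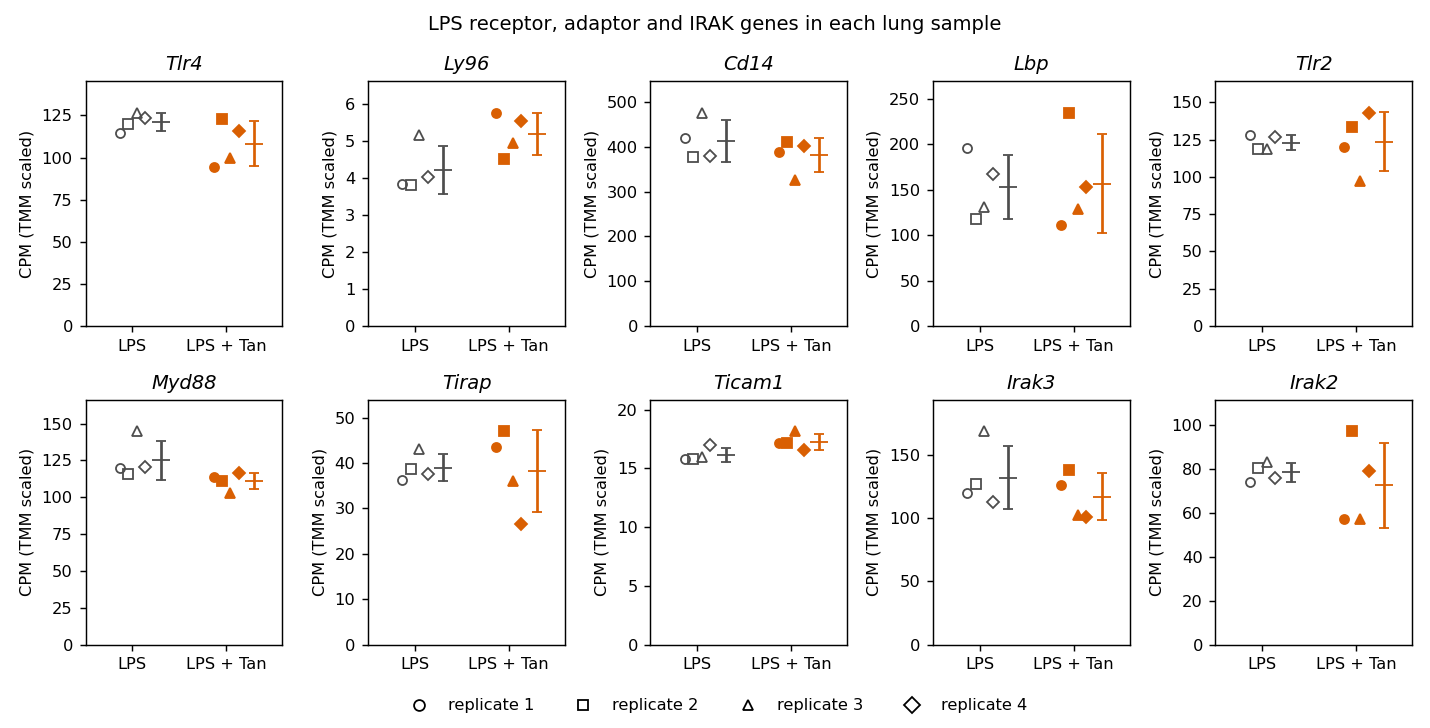
TMM-scaled CPM of each of the 10 genes in LPS (open) and LPS + Tan (filled) samples, with the symbol giving the replicate number, and with the group mean and SD (n = 4) to the right of the points. LPS replicate 3 is the highest LPS sample for 7 of the 10 genes, and LPS + Tan replicate 2 the highest LPS + Tan sample for 6.

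Among the adaptors, Myd88 and Ticam1 lay on opposite sides. Myd88 (chr9:119335934-119341411, minus strand), which links TLR4 to the IRAK kinases, had CPM of 120, 116, 145 and 120 in LPS replicates 1 to 4 and of 114, 111, 103 and 116 in LPS + Tan replicates 1 to 4. LPS replicate 3 stood above all others, and 3 of the 4 LPS samples were above every LPS + Tan sample. For Myd88 the log2 fold change was -0.17 (SE 0.091, 95% interval -0.37 to 0.029, edgeR adjusted p = 0.924), and -0.096 without LPS replicate 3. Ticam1 (chr17:56269319-56276786, minus strand), which encodes TRIF, had CPM of 15.8, 15.8, 16.0 and 17.0 in LPS replicates 1 to 4 and of 17.1, 17.1, 18.1 and 16.5 in LPS + Tan replicates 1 to 4. Here 3 of the 4 LPS + Tan samples were above every LPS sample. For Ticam1 it was 0.096 (SE 0.083, 95% interval -0.088 to 0.28).

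Tirap (chr9:35184551-35200291, minus strand), the bridging adaptor that brings MyD88 to the membrane, had CPM of 36.3, 38.6, 43.1 and 37.6 in LPS replicates 1 to 4 and of 43.4, 46.9, 36.1 and 26.5 in LPS + Tan replicates 1 to 4. The LPS + Tan samples again lay on both sides of the LPS samples, with replicate 4 lowest of all. Tirap had a log2 fold change of -0.024 (95% interval -0.38 to 0.33), and of 0.12 without LPS + Tan replicate 4 or -0.14 without LPS + Tan replicate 2.

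The promoters of Myd88 and Ticam1 are shown here because the ratio between these adaptors, given below, is one of the comparisons made. The stretches are the parts of the RefSeq promoter windows on GRCm38.p6 that lie outside the exons of GENCODE M21, chr9:119340042-119340268 for Myd88 and chr17:56276787-56277017 for Ticam1, both on the minus strand and written 5′ to 3′. The Myd88 stretch lies within the span of the gene in GENCODE M21, whose most upstream transcript begins before it, and the Ticam1 stretch lies just before its gene. Capitals mark a match to the core of an interferon-stimulated response element, read as GAAA and GAAA 2 bases apart, whose first base lies 40 bases before the RefSeq start.
Myd88: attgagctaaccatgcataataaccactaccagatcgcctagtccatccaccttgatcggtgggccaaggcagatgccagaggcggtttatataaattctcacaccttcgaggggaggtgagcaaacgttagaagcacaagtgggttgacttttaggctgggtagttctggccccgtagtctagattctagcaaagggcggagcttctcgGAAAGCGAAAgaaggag
Ticam1: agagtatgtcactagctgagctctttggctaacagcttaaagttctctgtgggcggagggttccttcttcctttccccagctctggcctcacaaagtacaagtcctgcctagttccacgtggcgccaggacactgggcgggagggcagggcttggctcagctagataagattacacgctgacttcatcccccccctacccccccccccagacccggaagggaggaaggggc

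Windows of 250 bases before to 50 bases after the start were found for 6 of the 10 genes, namely Tlr2, Irak2, Tirap, Myd88, Irak3 and Ticam1, 8 windows in all. Searched on both strands, this core was present in the Myd88 window alone of these, and in 3.44% of all 32851 mouse windows. An NF-κB type motif, GGG and TTTCC 2 bases apart, was found in 1.63% of all windows, and its stricter form with A as the first of those 2 bases, a subset of it, in 0.411%. Neither had a match in the windows of these genes, nor had TGANTCA, an AP-1 type motif found in 7.81% of all windows. The GC content was 54% in the Myd88 window and 60% in the Ticam1 window, against a median of 52.7% over all windows. A match is a matter of letters and no measurement of binding was made.

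The IRAK genes come next in the cascade. Irak2 (chr6:113638467-113695026, plus strand), which sustains NF-κB signalling downstream of MyD88, had CPM of 74.0, 80.6, 83.4 and 76.2 in LPS replicates 1 to 4 and of 57.1, 97.2, 57.1 and 79.2 in LPS + Tan replicates 1 to 4. LPS + Tan replicates 1 and 3 were below all LPS samples and replicate 2 was above all of them. Irak2 had a log2 fold change of -0.11 (95% interval -0.47 to 0.25). Single samples decided this value. Without LPS + Tan replicate 2 it was -0.28, and edgeR gave an unadjusted p of 0.0481 on the other 7 samples, the same fit that called 10.2% of all genes. Without LPS + Tan replicate 1 or 3 it was -0.015. Irak3 (chr10:120141648-120202130, minus strand), the negative regulator, had CPM of 120, 127, 169 and 112 in LPS replicates 1 to 4 and of 126, 139, 102 and 101 in LPS + Tan replicates 1 to 4. LPS replicate 3 was the highest and LPS + Tan replicates 3 and 4 the lowest. Irak3 had a log2 fold change of -0.17 (95% interval -0.51 to 0.16). It was -0.034 without LPS replicate 3, -0.11 without LPS + Tan replicate 4 and -0.27 without LPS + Tan replicate 2.

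**Figure D3:**
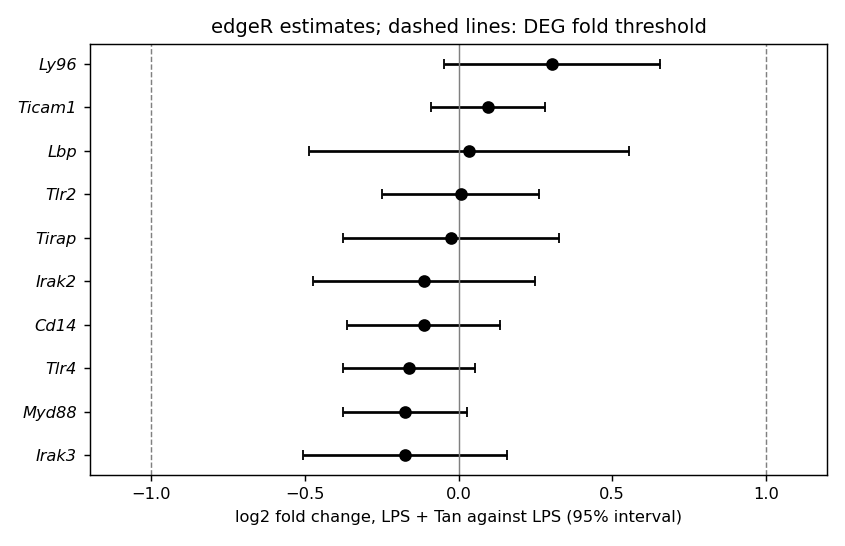
Log2 fold change of LPS + Tan against LPS for the 10 genes by edgeR (points, horizontal axis) with 95% intervals (bars), where dashed lines mark the fold threshold of the study at 1 on either side. Every interval holds 0 and lies between the dashed lines, from -0.51 at the lowest to 0.65 at the highest.

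The spread between samples was larger in the LPS + Tan group for some members. The SD of log2 CPM was larger there for 6 of the 10 genes, where this held for 64.9% of the tested genes. For Irak2 it was 0.38 in the LPS + Tan group and 0.078 in the LPS group, for Tlr2 0.24 and 0.060, for Tirap 0.37 and 0.11 and for Tlr4 0.18 and 0.062. For Myd88 it was smaller, 0.076 against 0.15. The median ratio of these SDs was 1.23 over the 10 genes and 1.29 over all tested genes.

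Ratios between genes of one sample were examined next, since they do not depend on the scaling of the samples. Of 5 ratios, that of Ticam1 to Myd88 separated the groups. It was 0.0899, 0.0931, 0.0755 and 0.0968 in FPKM for LPS replicates 1 to 4 and 0.103, 0.105, 0.121 and 0.0973 for LPS + Tan replicates 1 to 4. All 4 LPS + Tan samples were above all LPS samples, though LPS + Tan replicate 4 only just. The mean log2 ratio was higher by 0.26 in the LPS + Tan group, with SDs of 0.16 for LPS and 0.13 for LPS + Tan (n = 4 each). By a two-sided exact permutation test p was 0.0286, which is the smallest that 70 arrangements allow, and 0.143 after adjustment over the 5 ratios. The difference was thus larger than the SD of either group but not past the threshold after adjustment.

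The ratio of Ly96 to Tlr4, the subunits of one receptor complex, was 0.468, 0.443, 0.571 and 0.454 for LPS replicates 1 to 4 and 0.851, 0.515, 0.689 and 0.665 for LPS + Tan replicates 1 to 4. LPS + Tan replicates 1, 3 and 4 were above every LPS sample, while LPS + Tan replicate 2 lay below LPS replicate 3. The mean log2 ratio was higher by 0.48 in the LPS + Tan group, with SDs of 0.17 for LPS and 0.30 for LPS + Tan (n = 4 each, two-sided exact permutation p = 0.0571, adjusted 0.143). Only LPS + Tan replicate 2 overlapped the LPS group, so leaving it out separated the groups by the choice of sample. The difference was then 0.60, and the exact permutation p of 0.0286 was the smallest that the remaining samples allow.

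The other ratios overlapped widely. The ratio of Tlr2 to Tlr4 ranged from 2.39 to 2.85 in the LPS group and from 2.49 to 3.24 in the LPS + Tan group, a log2 difference of 0.16 (exact permutation test, p = 0.2). Cd14 was 15.6 to 19.0 times Tlr4 in the LPS group and 16.5 to 20.9 times in the LPS + Tan group, a log2 difference of 0.055 (exact permutation test, p = 0.657). Irak3, the inhibitory kinase homologue, was 1.59 to 2.17 times Irak2 in the LPS group and 1.37 to 2.37 times in the LPS + Tan group, a log2 difference of -0.021 (exact permutation test, p = 0.886).

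**Figure D4:**
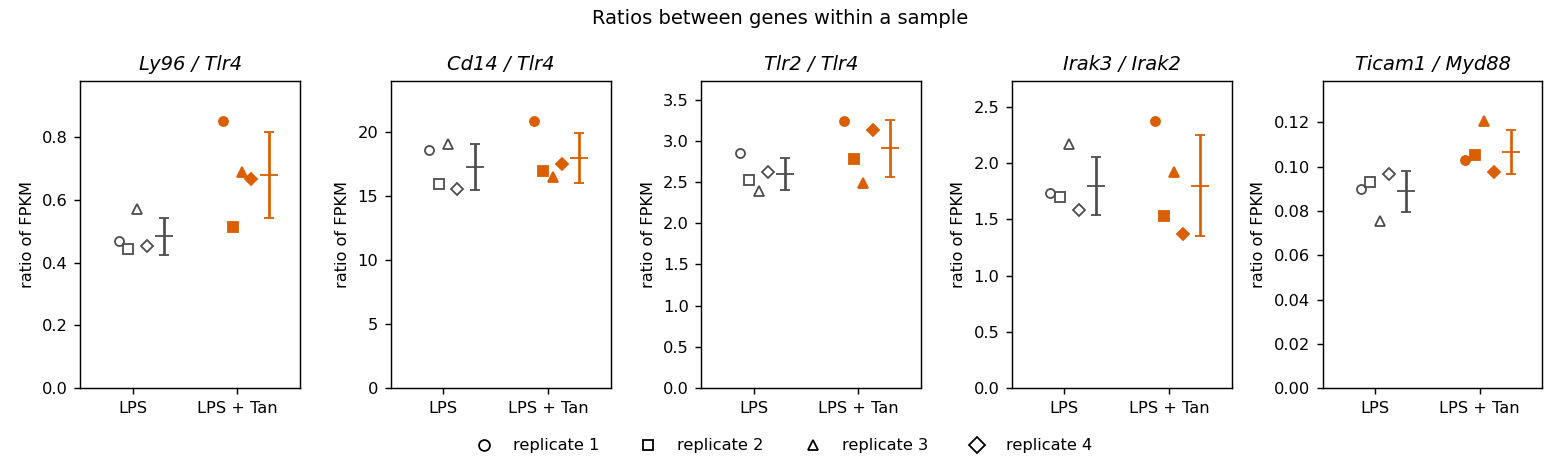
Ratios of FPKM between pairs of genes within each LPS (open) and LPS + Tan (filled) sample, with the symbol giving the replicate number and bars giving the mean and SD (n = 4). The groups are apart for Ticam1 to Myd88 alone, with LPS samples up to 0.0968 and LPS + Tan samples from 0.0973.

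Some members varied together between samples. Over the 8 samples, 4 of the 45 pairs had a Pearson correlation of log2 CPM at an unadjusted p below 0.05 by exact permutation, and 0 after adjustment over the 45 pairs, where the lowest was 0.287. Tlr4 and Irak2 were the closest pair (n = 8, Pearson's r = 0.907, exact permutation p = 0.00637, and Spearman's rho = 0.786, exact permutation p = 0.0279). Both were low in LPS + Tan replicates 1 and 3, the samples farthest from the median of Tlr4, and r was 0.474 without them. Leaving out the extremes of a gene narrows its range, so that a lower r is expected and the fall is no test. The next pairs were Cd14 and Myd88 (n = 8, r = 0.865, exact permutation p = 0.0227, and rho = 0.548, exact permutation p = 0.171) and Cd14 and Irak3 (n = 8, r = 0.755, exact permutation p = 0.0393, and rho = 0.476, exact permutation p = 0.243). Without LPS replicate 3 and LPS + Tan replicate 3, the samples farthest from the median of Cd14, r was -0.0887 with Myd88 and 0.0596 with Irak3. Tirap and Irak3 (n = 8, r = 0.735, exact permutation p = 0.0419, and rho = 0.857, exact permutation p = 0.0107) had r of 0.759 without LPS + Tan replicates 2 and 4. The correlation within the groups, from deviations from the group means, was 0.947, 0.871, 0.713 and 0.751 for these pairs.

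Of 15705 other genes, those whose log2 CPM followed each member most closely over the 8 samples are given as a description, since the highest of so many correlations is large by selection. Tlr4 was followed by Dusp1, a phosphatase that inactivates MAP kinases, with r = 0.993, and by Mt1, a metallothionein, with r = 0.988. Irak2 was followed by the kinase gene Pim3 (r = 0.987) and Rpain (r = 0.984), Irak3 by Ptprm (r = 0.979) and Eftud2 (r = 0.975), and Tirap by the ubiquitin ligase gene Rnf216 (r = 0.977). Myd88 was followed by Alg5 (r = 0.985) and Slc35g2 (r = 0.985), Ticam1 by Sox13 (r = 0.960) and Pkmyt1 (r = 0.943), Cd14 by Eif4a3 (r = 0.980) and Capzb (r = 0.971) and Ly96 by Fzd6 (r = 0.973) and Syvn1 (r = 0.963). The closest genes to Tlr2 were Serinc4 (r = 0.955) and Ndufv1 (r = 0.945), and those to Lbp were LOC118568730 (r = 0.944) and Slc25a17 (r = 0.936). These values share the libraries and their scaling.

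To set the 10 genes within the pathway, 6 lists of other genes were described in the same fit, by role and from receptor to target. They held 103 tested genes, of which 2 were higher and 6 lower at an unadjusted p below 0.05 by edgeR, 7.77% in all against 5.12% of all tested genes, and 0 had an adjusted p below 0.05. The lists were chosen with earlier results of these data known, so their shares and medians are a description and no test. The share at that p over all tested genes was 2.87% higher and 2.25% lower. Leaving out a sample moved this background too. It was 10.2% of all tested genes without LPS + Tan replicate 2, 9.34% without replicate 4, 3.02% without replicate 1 and 3.72% without replicate 3 of that group, and from 3.69% to 5.64% without a single LPS sample. With the replicate number as a block it was 5.26%. The counts from such fits below are to be read against these shares.

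Of 14 tested genes for LPS binding, co-receptors and receptor traffic, 0 were called, with a median log2 fold change of -0.041, while 2 were called without LPS + Tan replicate 2 or 4 and 1 without LPS replicate 1. Cd36, a scavenger receptor, had the lowest p of them, 0.0803, at a log2 fold change of 0.39 (SE 0.20, edgeR adjusted p = 0.924). Casp4, which encodes the cytosolic LPS sensor caspase-11, had a log2 fold change of -0.21, and Hsp90b1, whose product folds Toll-like receptors, had one of -0.038. Of 9 other tested Toll-like receptors, 1 was called, against 3 without LPS + Tan replicate 4 and 0 without LPS replicate 3 or 4 or LPS + Tan replicate 1. Tlr3, the sensor of double-stranded RNA that signals through TRIF, was lower, at 40.3 ± 3.31 CPM under LPS + Tan against 48.2 ± 6.10 under LPS (SD, n = 4 each; log2 fold change -0.26, SE 0.11, edgeR adjusted p = 0.924). Its groups overlapped, and the call was lost in 8 of 20 alternatives.

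Among 28 adaptors, kinases and ubiquitin ligases, 1 was higher and 0 lower, with a median of -0.040. Leaving out LPS + Tan replicate 2 gave 2 calls, and leaving out LPS replicate 1 or 4 or LPS + Tan replicate 1 or 3 gave 0. The gene called was Ticam2, which encodes TRAM, the adaptor that joins TRIF to TLR4. Its CPM was 3.66, 5.22, 4.44 and 4.199 in LPS replicates 1 to 4 and 8.51, 5.93, 6.47 and 4.42 in LPS + Tan replicates 1 to 4. LPS + Tan replicates 1 to 3 were above every LPS sample and replicate 4 lay among them. Ticam2 differed by 0.53 on the log2 scale (SE 0.21, edgeR adjusted p = 0.924), and by 0.35 without LPS + Tan replicate 1, where the unadjusted edgeR p was 0.0966. The call of Ticam2 was lost in 6 of 20 alternatives. In GENCODE M21, 838 exonic bases of Ticam2 are shared with Tmed7 on the same strand, so that its reads could not be assigned with certainty. The kinases that join MyD88, Irak4 and Irak1, had log2 fold changes of 0.023 and -0.026, and Traf6, the ubiquitin ligase they engage, one of -0.098.

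The 23 tested negative regulators included 1 gene that was higher and 1 that was lower, with a median of -0.081. The number called was 7 without LPS + Tan replicate 4 (9.34% of all genes), 6 without LPS + Tan replicate 2 (10.2% of all genes), 4 without LPS replicate 3 and 1 without LPS + Tan replicate 1 or 3. With the replicate number as a block it was 5. Tnip3, which encodes an A20-binding inhibitor of NF-κB, was higher. Its CPM was 1.94, 2.84, 2.56 and 2.38 in LPS replicates 1 to 4 and 3.79, 3.76, 4.16 and 3.12 in LPS + Tan replicates 1 to 4, so that the groups did not overlap. Tnip3 differed by 0.61 on the log2 scale (SE 0.18, edgeR adjusted p = 0.922), from 971 counts over the 8 samples. Tnfaip3, which encodes A20, the deubiquitinase that TNIP proteins bind, was lower. Its CPM was 302, 349, 343 and 299 in LPS replicates 1 to 4 and 223, 312, 209 and 262 in LPS + Tan replicates 1 to 4. LPS + Tan replicates 1, 3 and 4 were below every LPS sample. For Tnfaip3 this gave a log2 fold change of -0.36 (SE 0.13, edgeR adjusted p = 0.924), and the call was lost in 3 of 20 alternatives. Tollip, which binds IRAK1, had a log2 fold change of -0.081, and Sigirr, an inhibitory receptor of the family, one of 0.21.

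Targets of both branches lay mostly below 0. Of 15 tested MyD88-dependent targets, 4 were lower and 0 higher at an unadjusted p below 0.05, and 13 had a negative log2 fold change, with a median of -0.23, where 48.2% of all tested genes were negative. The 2 positive ones were those of the cytokine genes Tnf (0.093, edgeR adjusted p = 0.985) and Il1b (0.13, edgeR adjusted p = 0.982). Il6 had a log2 fold change of -0.35 (edgeR adjusted p = 0.967). None of these 3 cytokine genes was called. The neutrophil chemokine gene Cxcl2 averaged 56.7 ± 7.66 CPM under LPS and 40.4 ± 12.9 under LPS + Tan (SD, n = 4 each), and its log2 fold change was -0.49 (SE 0.21, edgeR adjusted p = 0.924). Saa3, an acute-phase gene made in lung, averaged 4253 ± 474 and 3263 ± 620 CPM (SD, n = 4 each), and its log2 fold change was -0.38 (SE 0.16, edgeR adjusted p = 0.924). Both overlapped between the groups, and of 20 alternatives Cxcl2 lost its call in 5 and Saa3 in 8. The other 2 called, Il1a, the alarmin interleukin-1α, and Cxcl1, a neutrophil chemokine, did not overlap and kept their calls in all 20. Il1a ranged from 14.1 to 20.4 CPM under LPS and from 11.3 to 13.1 under LPS + Tan (log2 fold change -0.49, SE 0.13, edgeR adjusted p = 0.850). Cxcl1 ranged from 53.6 to 78.5 CPM under LPS and from 41.7 to 51.7 under LPS + Tan (log2 fold change -0.44, SE 0.12, edgeR adjusted p = 0.919). Without LPS + Tan replicate 2, 8 of the MyD88-dependent targets were called, in a fit that called 10.2% of all genes, and without LPS replicate 2 or 3, or LPS + Tan replicate 1 or 3, 2 were called.

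Of 14 tested TRIF-dependent targets, 0 were called and 13 had a negative log2 fold change, with a median of -0.24. Cxcl9, a chemokine gene induced by interferons, had the lowest p. Its CPM was 2105, 2775, 3142 and 3173 in LPS replicates 1 to 4 and 960, 1979, 1462 and 3205 in LPS + Tan replicates 1 to 4, so that LPS + Tan replicates 1 to 3 were below every LPS sample and replicate 4 above them all. Cxcl9 had a log2 fold change of -0.56 (SE 0.32). It was -0.93 without LPS + Tan replicate 4 and -0.34 without LPS + Tan replicate 1. In the fit without LPS + Tan replicate 4, 6 of the TRIF-dependent targets and 9.34% of all genes were called, and with the replicate number as a block 6 of these targets and 5.26% of all genes. Some lists of cell type markers also lay mostly below 0, with negative log2 fold changes for 6 of 6 erythroid, 5 of 6 fibroblast and 6 of 7 alveolar type 2 markers and 0 of each called. Others lay mostly above 0, with positive ones for 8 of 10 monocyte and interstitial macrophage, 8 of 12 neutrophil, 5 of 8 endothelial and 4 of 6 alveolar type 1 markers. Of these, 1 monocyte and macrophage marker and 2 endothelial markers were called. The summed CPM of the erythroid markers was 1417 to 3432 under LPS and 1317 to 2139 under LPS + Tan. The part of any of these cell types in the values of the targets was not tested. Genes of these target lists were written down as typical targets and many respond to other stimuli as well.

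**Figure D5:**
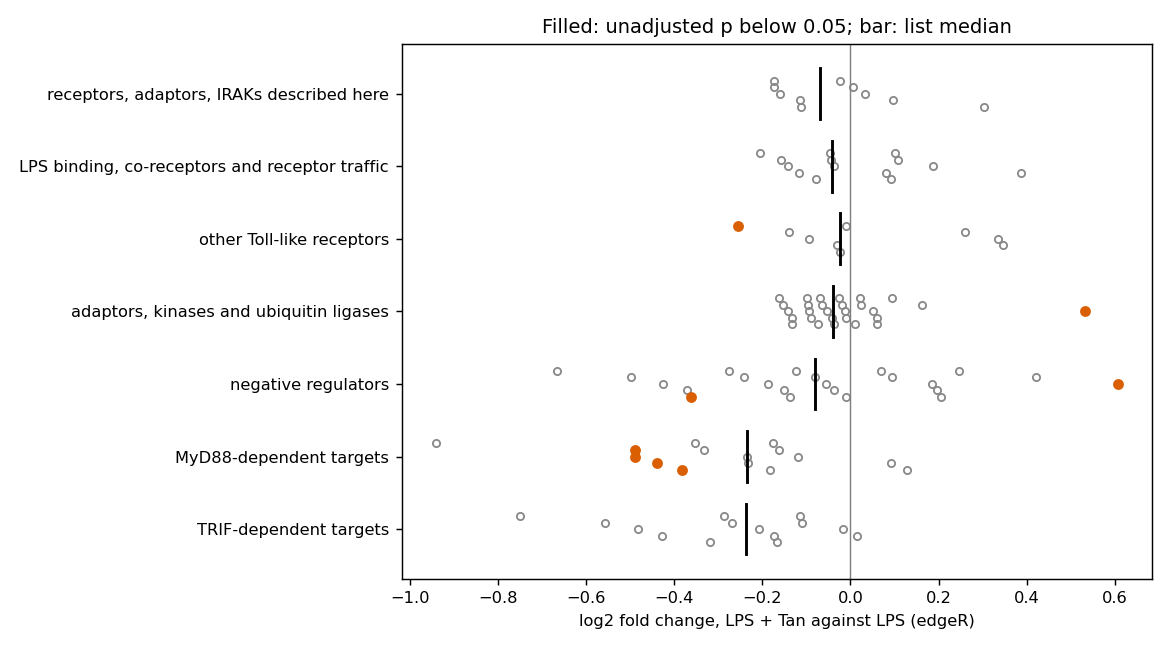
Log2 fold change by edgeR of each tested gene (points) in the 10 genes described here and in 6 lists of other TLR4 pathway genes, with filled points for an unadjusted p below 0.05 and a vertical bar for the median of each list. The medians of the receptor and adaptor rows lie from -0.068 to -0.024, that of the negative regulators at -0.081, and those of the 2 rows of targets at -0.23 and -0.24.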

How the data were processed

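RNA-seq of mouse lung was analysed in 4 LPS and 4 LPS + Tan samples. The authors deposited raw read counts per gene and FPKM values made from them by gene length and total count. The submitters' processing notes name GRCm38 and mm10, while the aligner, counter, annotation and strand setting were not stated there, in the methods or in the labels. The methods name TRIzol and the VAHTS kit, whereas the labels name other extraction and library kits.

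Counts were filtered with filterByExpr, scaled by TMM and fitted by quasi-likelihood (edgeR 4.0.16, R 4.3.3) without covariates. Standard errors are the size of the log2 fold change divided by the square root of F. Single ratios and correlations were tested by exact permutation over 70 arrangements or 40320 pairings. Alternatives used DESeq2 1.42.0, limma 3.58.1 (voom, and log2(FPKM + 1) or log2(FPKM + 0.1)), other scalings and filters, a replicate block and samples left out. The edgeR function was tested on simulated data. The 10 genes and all lists were chosen with earlier results of these data known. Named genes were the 10 genes, per list those at an unadjusted p below 0.05 (at most 4) or else the one with the lowest p, the 2 genes most correlated with each member, and the marker of highest FPKM per list. A gene named by this rule is not reported here. Casp4, Hsp90b1, Irak1, Irak4, Traf6, Tollip, Sigirr, Tnf, Il1b and Il6 were added after their values were seen. Depth, 38895654 to 39931970 counts, was similar between samples, and counting error is largest for low genes such as Ly96. Counting without strand would mix reads where exons overlap an opposite gene, over 290 bases for Myd88 with Acaa1a, 192 for Irak3 with Tmbim4, 196 for Irak2 with Gm43963 and 446 for Tirap with Gm39318, and also 381 for Tlr3 with Gm45542 and 222 for Il1a with Gm14023.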

Additional observations from a re-analysis of the deposited data

Results flagged for a closer look

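A single sample stood apart in 3 of 74 sets of 4 values tested, where about 1 in 20, or 3.7 sets, would by chance. The share given is the gap to the next sample divided by the whole range within the group. Ly96 was highest in LPS replicate 3, at 5.17 CPM with the next sample at 4.02, a share of 0.841. Myd88 was also highest in LPS replicate 3, at 145 CPM with the next sample at 120, a share of 0.847. Ticam1 was highest in LPS replicate 4, at 17.0 CPM with the next sample at 16.0, a share of 0.83.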

How the results depend on the processing

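All values of the 10 genes were recomputed under 20 alternatives, 200 values in all, of which 180 kept their direction and their side of the threshold, 13 changed sign and 7 went past the threshold. Ly96 went past it on total counts (0.35), with limma on log2(FPKM + 1) (0.31, also over all genes) and on log2(FPKM + 0.1) (0.35). So 1 of the 10 genes was called under each of these, where 5.15% to 5.86% of all genes were called. The median log2 fold change over all tested genes was 0.028 to 0.049 in these fits, against 0.0070 in the main fit. Lbp changed sign with the replicate block (-0.00046), Tlr2 with the block (-0.0071) and with limma-voom (-0.0069), and Tirap on total counts (0.023). With single samples left out, the log2 fold changes were -0.23 to -0.10 for Tlr4, 0.25 to 0.42 for Ly96, -0.16 to -0.039 for Cd14, -0.21 to -0.096 for Myd88, 0.068 to 0.12 for Ticam1, -0.27 to -0.034 for Irak3, -0.23 to 0.17 for Lbp, -0.071 to 0.10 for Tlr2, -0.14 to 0.12 for Tirap and -0.28 to -0.015 for Irak2, and 0 to 2 of the 10 genes were called. Genes called at an unadjusted p below 0.05 over all genes numbered 1266 with limma on log2(FPKM + 1) of all genes and 480 to 1626 with single samples left out. At an adjusted p below 0.05 they numbered 35 with DESeq2, 23 with the likelihood ratio test, 2 with limma on all genes and 0 to 1 with single samples left out. In the lists, single samples left out gave 0 to 2 calls for LPS binding and traffic, 0 to 3 for other Toll-like receptors, 0 to 2 for adaptors and kinases, 1 to 7 for negative regulators, 2 to 8 for MyD88-dependent and 0 to 6 for TRIF-dependent targets. Calls of other Toll-like receptors fell to 0 on total counts and in the limma fits of FPKM, and those of adaptors and kinases to 0 with limma on all genes. Negative regulators had 4 calls with limma-voom, and TRIF-dependent targets had 1 with limma-voom and with limma on log2(FPKM + 1) or log2(FPKM + 0.1) of the tested genes. Of all genes, limma-voom called 5.16% and these fits of FPKM 5.86% and 5.8%. For the genes named in the lists, 166 of 200 values stayed on their side of the threshold, 30 lost a call, 4 gained one and 0 changed sign. The cause of these changes was not tested.

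The correlations of deviations of same-numbered samples were 0.164, -0.0505, -0.165 and 0.0440, within the range of -0.263 to 0.292 for differently numbered samples. These values do not settle whether the replicate numbers pair the samples. With the numbers as a block, 0 adaptors and kinases, 5 negative regulators and 6 TRIF-dependent targets were called. For the log2 ratio of Ticam1 to Myd88, 0.26 under any pairing of the samples, the exact sign-flip test on pairs by number gave p = 0.125, the smallest it allows. With single samples left out, the log2 difference was 0.19 to 0.31 for Ticam1 to Myd88, 0.36 to 0.60 for Ly96 to Tlr4, -0.019 to 0.10 for Cd14 to Tlr4 and -0.16 to 0.098 for Irak3 to Irak2, and p for Ticam1 to Myd88 was 0.0571 in 6 of 8 cases. Without the 2 samples farthest from the median of the first gene of a pair, 0 of the 45 pairs were correlated at p below 0.05 by exact permutation, and r for Cd14 and Myd88 was -0.0887. Fewer samples over a narrower range make such a loss expected, so this does not decide which genes vary together.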
